A study of Mus musculus with 3 samples.

Results

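The very wide RNAP2 peaks are the 404 of 20479 peaks in the RNA polymerase II (RNAP2) list that span at least 4000 bp. They were selected on this measured width alone, so their widths and RNAP2 scores are given below as a description. They make up 1.97% of the peaks and hold 7.83% of the bases in RNAP2 peaks. The RNAP2 list comes from ChIP-seq of cells of mouse distal forelimbs taken at E12.5, a stage at which digits are forming. The same tissue was profiled with an antibody to Med12, a subunit of the Mediator complex, and 1 input library was sequenced. Each antibody had 1 library, no genotype, strain, treatment or number of pooled embryos is given in the labels, and every value therefore lacks a replicate error. The tissue was dissociated with collagenase before the cells were fixed. The labels and the methods state E12.5, whereas the design text of the series states an earlier stage.

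RNAP2 assembles at gene starts with the general transcription factors, moves through the gene while making RNA and leaves some distance beyond the end of the message. Mediator is a large complex that contacts RNAP2 and transcription factors bound at promoters and enhancers, and Med12 belongs to its kinase module. A wide RNAP2 peak can span a start, a gene body, a gene end or several neighbouring genes, and the position in the annotation separates these cases.

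The sequences at the starts are shown first, because the annotated start was the point from which all placements of the peaks were measured. Each line gives 300 bases of mm9 from 250 bases before to 50 bases after the first coding start inside the widest peak of each of 5 gene lists, read 5′ to 3′ on the strand of the gene. Capitals mark GGGCGG and CCAAT on either strand, and TATAAA on the gene strand from 50 to 11 bases before the start. GGGCGG is the core of a GC box, CCAAT that of a CCAAT box and TATAAA that of a TATA box. The exception is the signal response genes, of which Smad7 had the widest peak and Id2, the next, is shown. In the Cyr61 line TATAAA is followed directly by GGGCGG.
Cyr61, chr3:145312900-145313199, minus strand: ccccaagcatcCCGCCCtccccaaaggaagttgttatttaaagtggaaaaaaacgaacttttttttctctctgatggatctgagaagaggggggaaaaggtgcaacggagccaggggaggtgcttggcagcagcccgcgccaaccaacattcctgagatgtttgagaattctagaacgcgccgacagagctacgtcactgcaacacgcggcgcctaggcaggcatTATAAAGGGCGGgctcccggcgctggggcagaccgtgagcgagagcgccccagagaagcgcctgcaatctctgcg
Id2, chr12:25780908-25781207, minus strand: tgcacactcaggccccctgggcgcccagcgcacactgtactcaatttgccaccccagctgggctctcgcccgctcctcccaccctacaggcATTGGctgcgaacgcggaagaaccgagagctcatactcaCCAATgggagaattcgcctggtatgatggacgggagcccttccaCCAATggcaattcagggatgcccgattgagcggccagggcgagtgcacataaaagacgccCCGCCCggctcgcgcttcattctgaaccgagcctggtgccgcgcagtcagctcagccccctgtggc
Hoxa10, chr6:52190804-52191103, minus strand: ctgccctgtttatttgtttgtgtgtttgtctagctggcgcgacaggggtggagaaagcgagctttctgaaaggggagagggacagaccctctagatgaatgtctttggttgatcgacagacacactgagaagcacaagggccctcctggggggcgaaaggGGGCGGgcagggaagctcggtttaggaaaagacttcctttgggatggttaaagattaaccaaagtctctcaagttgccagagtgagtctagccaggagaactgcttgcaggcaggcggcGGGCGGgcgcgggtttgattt
Hnrnpa2b1, chr6:51419844-51420143, minus strand: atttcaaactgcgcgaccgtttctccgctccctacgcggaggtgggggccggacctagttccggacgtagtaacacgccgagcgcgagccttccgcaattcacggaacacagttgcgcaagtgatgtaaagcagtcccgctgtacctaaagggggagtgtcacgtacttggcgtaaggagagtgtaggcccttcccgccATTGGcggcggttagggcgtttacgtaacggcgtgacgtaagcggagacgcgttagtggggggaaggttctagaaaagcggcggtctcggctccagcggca
Tbx5, chr5:120284422-120284721, plus strand: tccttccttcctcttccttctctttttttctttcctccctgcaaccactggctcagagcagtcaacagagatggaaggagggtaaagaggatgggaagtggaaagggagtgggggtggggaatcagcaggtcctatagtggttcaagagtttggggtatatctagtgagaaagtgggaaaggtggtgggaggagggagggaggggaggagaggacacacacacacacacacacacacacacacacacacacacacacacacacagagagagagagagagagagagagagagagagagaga

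Cyr61 (an immediate early gene for a secreted matricellular protein) held 1 TATAAA and 2 GGGCGG matches in this window, whereas Id2 (an inhibitor of basic helix-loop-helix factors) held 1 GGGCGG and 3 CCAAT matches. The annotated start of Tbx5, the T-box factor that marks the forelimb, fell in a simple repeat with no match to any of the 3 motifs.

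A start in a very wide peak was found for 228 of 22367 protein-coding genes, or 1.02%. Of these 228, 14 had TATAAA from 50 to 11 bases before that start, or 6.14% (95% Wilson interval 3.69 to 10.0%). The share was 0.922% (0.743 to 1.14%) of 8782 genes with a start in a narrower RNAP2 peak and 2.85% (2.64 to 3.08%) of 22359 protein-coding genes in all. These intervals, like all others below, cover counting error only. GGGCGG was found in 60.1% (53.6 to 66.2%) of the windows in very wide peaks, in 68.0% in narrower peaks and in 44.0% of all genes. CCAAT was found in 52.2% (45.7 to 58.6%), 40.4% and 37.9%, respectively. GC content of the window had a median of 61.3% in very wide peaks and 61.7% in narrower ones. A match is a description of letters and not a mapped site. The 40 bases searched are shown for the genes with TATAAA in the 6 widest peaks, with the match in capitals.
Hnrnpab, chr11:51420360-51420399, minus strand: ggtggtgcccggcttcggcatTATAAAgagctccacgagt
Cyr61, chr3:145312960-145312999, minus strand: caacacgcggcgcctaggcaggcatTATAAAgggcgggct
Fos, chr12:86814790-86814829, plus strand: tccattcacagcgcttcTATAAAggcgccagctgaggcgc
Id1, chr2:152561937-152561976, plus strand: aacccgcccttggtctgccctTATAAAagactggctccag
Btg1, chr10:96079585-96079624, plus strand: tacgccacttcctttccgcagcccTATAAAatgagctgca
Zfp36l1, chr12:81214011-81214050, minus strand: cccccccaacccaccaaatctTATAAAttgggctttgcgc

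The genes with TATAAA were Hnrnpab, Cyr61, Fos, Id1, Btg1, Zfp36l1, Junb, Srsf3, Hist1h1a, Hist1h3a, Zfp36l2, Srsf2, Gadd45g and Mylip. They are named because they are all of the matches. Fos and Junb encode subunits of the AP-1 factor, Zfp36l1 and Zfp36l2 encode proteins that bind AU-rich messages, Srsf2 and Srsf3 encode splicing factors and Hist1h1a and Hist1h3a encode histones.

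Widths ran from 4000 to 21448 bp with a median of 5288 bp. Of the 404 peaks, 171 were under 5000 bp, 148 were at least 6000 bp and 31 at least 10000 bp, while the peaks under 4000 bp had a median width of 1316 bp. The score that MACS assigns to each peak (minus 10 times the log10 of a p-value) ranged from 54.6 to 3181 with a median of 1019, against a median of 119.6 in narrower peaks. A score of exactly 3100 was listed for 79 of the very wide peaks and 232 of the others, so scores do not order the peaks above that value. The score depends on width and depth and comes from the same library as the selection. On the inner side of the limit were peaks at Ppp2r2a (4000 bp), Tmtc2 (4005 bp), Rarg and Snrpb (4014 bp each) and Cpsf6 (4018 bp), and just outside it were peaks at Lpar1 (3999 bp), Hnrnpd (3988 bp), Arf4 (3979 bp), Tcf4 (3977 bp) and Caprin1 (3964 bp). The scores of these 10 peaks overlapped, from 255.7 at Snrpb to 521.84 at Tmtc2 inside and from 335.5 at Lpar1 to 1156.7 at Hnrnpd outside.

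The widest peak, at chr6:52170017-52191464, spanned 21448 bp over Hoxa7, Hoxa9 and Hoxa10, homeobox genes that pattern the limb, with a score of 1168.78. A peak of 19170 bp at chr6:51402785-51421954 held Hnrnpa2b1 whole, the start of Cbx3 and the end of Nfe2l3. Hnrnpab was held by a peak of 18529 bp, scored at only 129.4, at chr11:51402725-51421253, which reached Agxt2l2. The peak of 17836 bp over Srrm2 and Tceb2 and that of 17781 bp over Sfpq held the ends of genes but no coding start. Srrm2 and Sfpq encode splicing proteins. Next came Hoxd10 to Hoxd12 at 16825 bp, the ends of Dstn and Rrbp1 at 16150 bp, Tra2b at 15290 bp, Csnk1a1 at 15229 bp, Smad7 at 14772 bp, an interior stretch of Tcf4 at 14422 bp and an interior stretch of Vcl, the vinculin gene, at 14139 bp. Tra2b counted as holding a start through a short transcript that begins inside the gene, and its first start lay in a narrower peak.

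**Figure D1:**
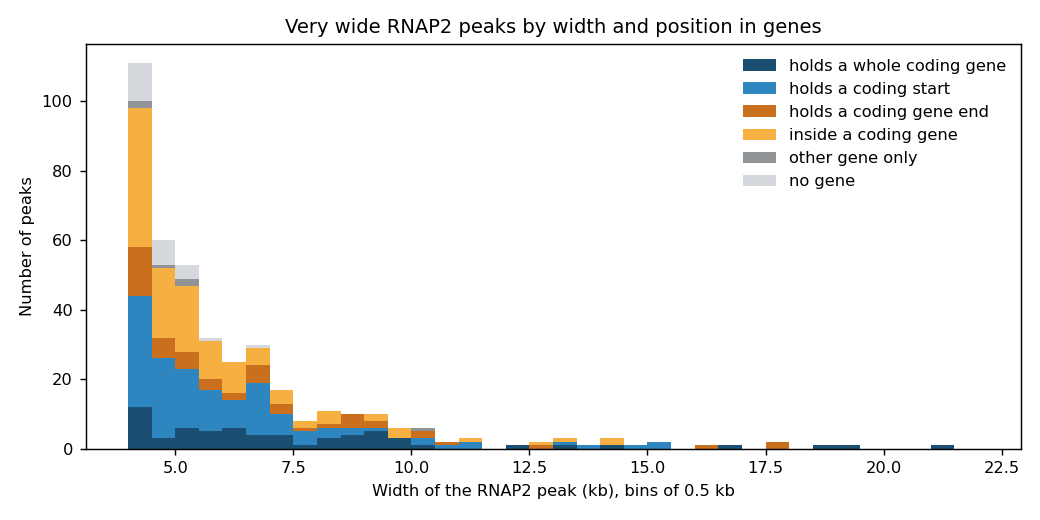
Number of RNAP2 peaks of 4000 bp or more by width, in bins of 0.5 kb on the horizontal axis, with colours for the position in genes. Of the 404 peaks, 171 were under 5000 bp wide, and the widest, at 21448 bp, held whole coding genes.

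The peaks were placed in 6 exclusive classes in the order whole coding gene, coding start, coding gene end, inside a coding gene, other gene only and no gene. A coding start was held by 197 peaks, or 48.8% (43.9 to 53.6%), against 40.2% (39.5 to 40.9%) of the 20075 narrower peaks and 40.4% of all RNAP2 peaks. A whole protein-coding gene was held by 64, or 15.8% (12.6 to 19.7%), against 0.603% (0.505 to 0.720%) of narrower peaks and 0.903% of all. A further 133 held a start but no whole gene, or 32.9% against 39.6%. The end of a coding gene without a start was held by 53, or 13.1% (10.2 to 16.8%), against 1.85% (1.68 to 2.05%). Peaks inside a coding gene numbered 124, or 30.7% against 35.9%, another 6 touched other genes only, and 24 touched no gene, or 5.94% (4.02 to 8.69%) against 19.6% (19.1 to 20.2%). A wider interval has more bases in which to meet a start, an end or a gene, and these shares contain that effect of width.

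**Figure D2:**
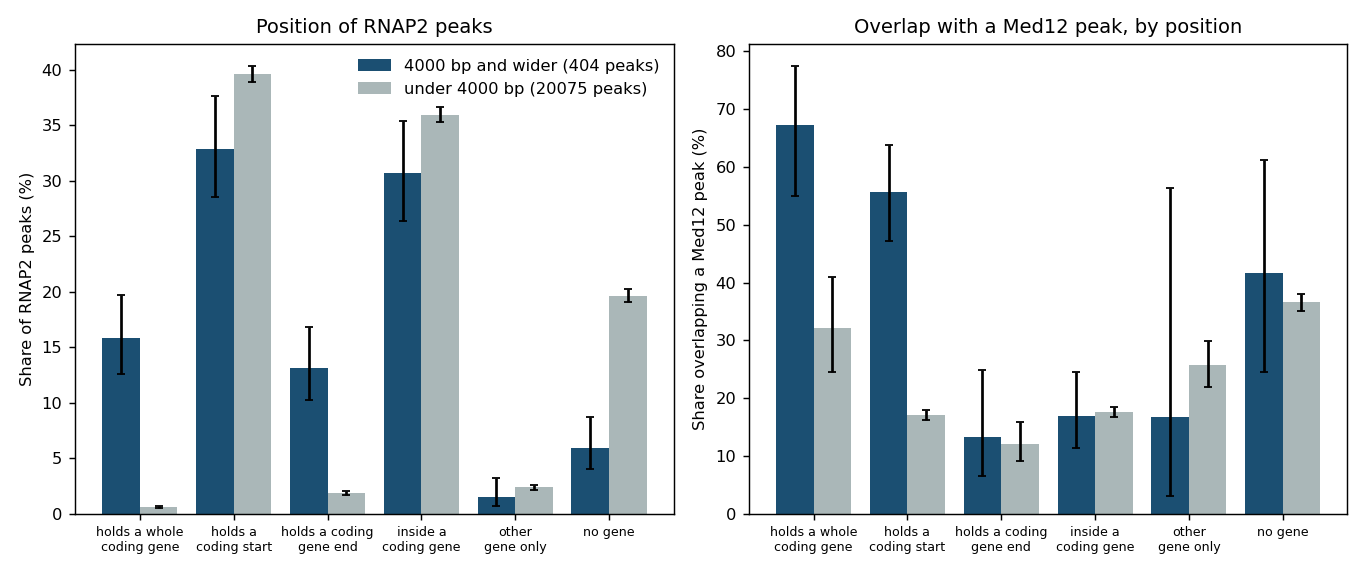
Left, share of RNAP2 peaks in each position class for peaks of 4000 bp or more (dark) and narrower peaks (grey). Right, share of each class that overlapped a Med12 peak by 1 bp or more. Bars are percentages and lines are 95% Wilson intervals. Med12 overlapped 67.2% of very wide peaks with a whole gene and 55.6% of those with a start, and 13.2% of those at gene ends.

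Where a very wide peak held starts of exactly 1 coding gene (169 peaks), it extended a median of 1488 bp upstream of the start (range 112 to 7838 bp) and 3989 bp downstream (534 to 17624 bp). More than 50% of the width lay downstream in 147 of the 169, or 87.0% (81.1 to 91.2%), against 70.1% (69.0 to 71.1%) of 7054 narrower peaks. The start used was the first coding start inside the peak. A wider interval can hold more alternative starts of a gene, which can raise its downstream share, and this was not corrected for. The median downstream share was 75.8% of the width in the very wide peaks, compared with 57.0% in the narrower ones. Among these peaks, the genes held whole had a median length of 2988 bp and those held in part 26741 bp. The peaks over whole genes went 5068 bp downstream at the median and so passed beyond the annotated end, whereas the peaks over longer genes went 3653 bp into them. In all, 75 coding genes lay wholly inside a very wide peak, with a median length of 2623 bp compared with 15427 bp for all coding genes. The longest of them were Hoxa10 (9658 bp), Hnrnpa2b1 (9461 bp), Hoxd11 (8350 bp), Hoxa9 (7990 bp) and Hnrnpab (7978 bp).

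**Figure D3:**
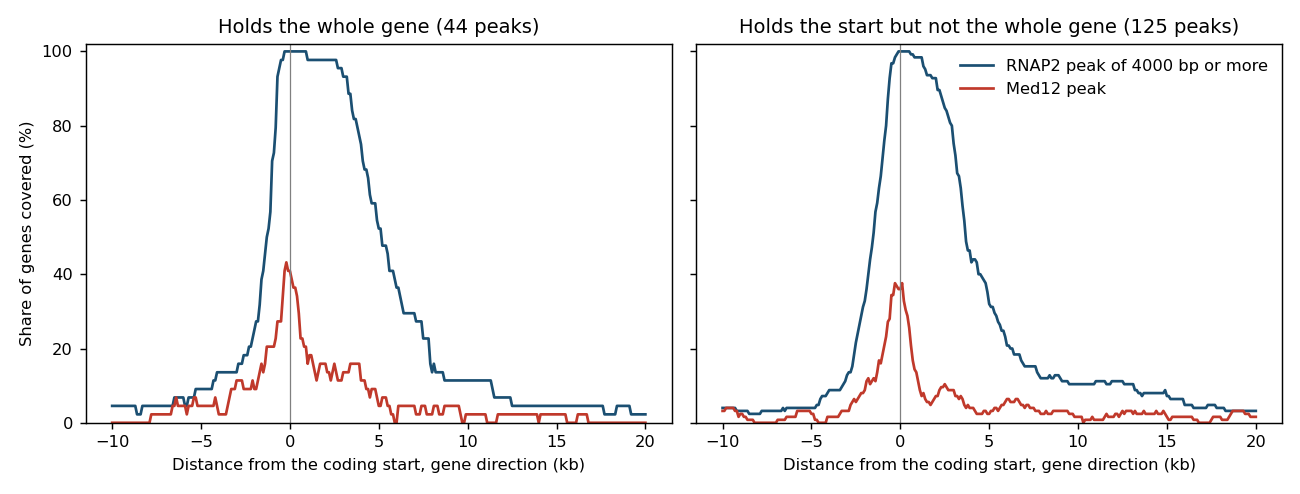
Share of genes covered by an RNAP2 peak of 4000 bp or more (blue) and by a Med12 peak (red) at each distance in kb from the coding start, in the direction of the gene. Left, 44 genes held whole; right, 125 genes held at the start only. At the start Med12 covered 40.9% and 36.0% of genes, and 5000 bp downstream 4.55% and 2.40%.

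The 53 peaks at gene ends covered the last part of a gene and the sequence after it. For the 41 with a single gene end, the median was 3959 bp inside the gene and 1566 bp beyond its annotated end, and 38 of these 41 genes had a separate RNAP2 peak at a start. Sfpq had the largest such peak, with 13032 bp inside the gene and 4748 bp beyond its end. The others with at least 9035 bp of width were at Wdr1 (12908 bp), Lrig3 (10557 bp), Nedd4 (10416 bp), Smad7 (9356 bp) and Slc38a2 (9035 bp). Smad7, an inhibitory SMAD that restrains TGF-beta and BMP signals, thus had one very wide peak from its start and another over its end, with Med12 at the first and none at the second. These end peaks beyond Sfpq were chosen after their values were seen.

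The 124 peaks inside coding genes lay mostly in introns. Exons made up a median of 3.90% of their bases, 40 of them held no exon base, and the nearest coding start was a median of 26160.5 bp away. Several genes touched a row of very wide peaks. Tcf4, a basic helix-loop-helix factor of the E protein family, touched 15 very wide peaks among 61 RNAP2 peaks, with widths from 4200 to 14422 bp and scores from 241 to 1482, of which 3 overlapped Med12. Gli3, the zinc finger factor that mediates Hedgehog signals in the limb, touched 9 of 62, from 4102 to 13085 bp, of which 2 overlapped Med12. Cdh11, a mesenchymal cadherin, touched 7 of 25, from 5179 to 9650 bp, also with Med12 at 2. Very wide peaks covered 28.4% of the length of Tcf4, 23.2% of Gli3 and 45598 of the 152117 bp of Cdh11, and RNAP2 peaks of any width 57.3%, 57.9% and 53.5%. Fgfr2 touched 5, but its annotated model spans 3009069 bp and reaches over neighbouring genes, so this count is uncertain. There were 18 genes with 3 or more very wide peaks.

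Very wide peaks often had another RNAP2 peak close by. The next peak was less than 500 bp away for 157 of the 404, or 38.9%, and less than 5000 bp away for 304, or 75.2%, against 30.6% of narrower peaks at the latter distance. Width as used here is that of a listed interval and not of intervals joined across such gaps. At HoxD, 4 very wide peaks lay side by side from Evx2 to Hoxd9 at chr2:74486472-74537537, separated by 121 to 3265 bp, and covered 92.9% of 51066 bp. Their widths were 14108 bp at Evx2, 10415 bp at Hoxd13 and Hoxd12, 16825 bp at Hoxd12 to Hoxd10 and 6113 bp at Hoxd9. At HoxA, the peak over Hoxa7 to Hoxa10 and that of 7931 bp over Hoxa11, which were 1074 bp apart, covered 96.5% of 30453 bp. The run went on past Hoxa11 with a very wide peak of 4944 bp outside genes, 13 bp away. Another of 4986 bp lay 9 bp beyond that and covered 85.8% of Hoxa13, including its end but not its coding start. Neither of these further peaks overlapped Med12.

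**Figure D4:**
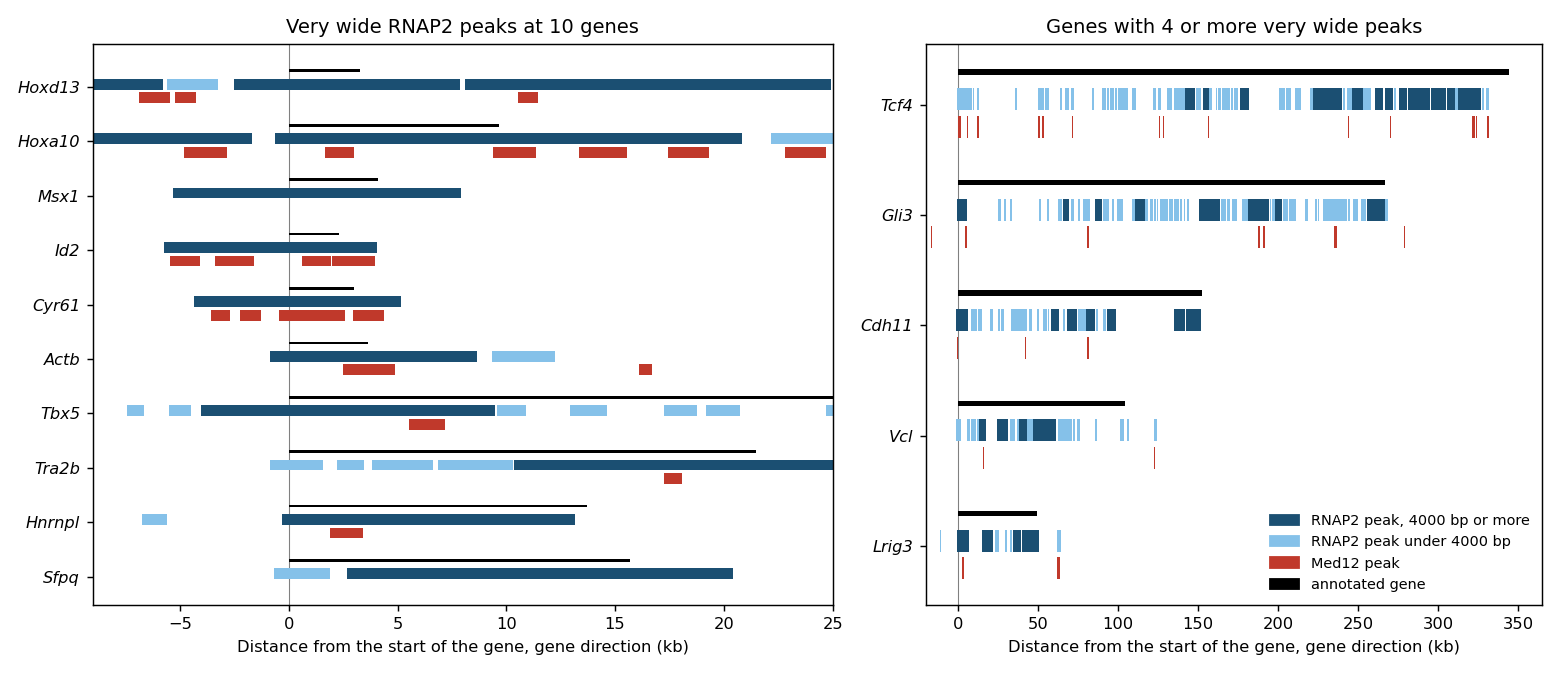
RNAP2 peaks of 4000 bp or more (dark blue), narrower RNAP2 peaks (light blue), Med12 peaks (red) and the annotated gene (black) by distance in kb from the start of the gene, in its direction. Left, 10 genes, chosen after their values were seen; right, 5 genes touched by at least 4 very wide peaks. The Msx1 and Sfpq peaks had no Med12 peak, whereas the Id2 and Cyr61 peaks each had 4. Those upstream of the Cyr61 start had Med12 scores of only 40.72 and 43.43.

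Med12 was read from another library with another antibody, which the selection did not use. A Med12 peak overlapped 156 of the 404 very wide peaks by at least 1 bp, or 38.6% (34.0 to 43.4%), against 4279 of 20075 narrower peaks, or 21.3% (20.8 to 21.9%), and 21.7% of all RNAP2 peaks. Among peaks of either list with a score of at least 100, the shares fell to 72 of 400 very wide peaks (14.5 to 22.1%) and 12.1% (11.5 to 12.7%) of 11221 narrower ones. The comparison is also affected by width. Med12 peaks covered 11.8% of the bases of very wide peaks and 15.2% of those of narrower ones, and there were 8.69 and 14.7 Med12 peaks per 100 kb. In the central 1000 bp alone, 17.6% (14.2 to 21.6%) of very wide peaks and 20.9% (20.3 to 21.5%) of narrower ones met Med12. Where they did overlap, Med12 covered a median of 24.7% of the very wide peak (5.27 to 95.2%) and 73.1% of the narrower peak, so that most of a very wide peak lay outside Med12 peaks.

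In windows of the same size, 1 kb on each side of a held start, Med12 was found at 97 of the 197 very wide peaks with a start, or 49.2% (42.3 to 56.2%), and at 1416 of 8074 narrower peaks, or 17.5% (16.7 to 18.4%). A peak with several held starts had a window at each, and any of them could meet Med12. Wider peaks could thus have more bases searched, which was not corrected for here or in the width classes and score bands that follow. By width, the share in these windows was 8.12% for peaks under 1000 bp, 29.9% from 2000 to under 3000 bp, 35.1% from 3000 to under 4000 bp, 45.7% (34.6 to 57.3%) from 4000 to under 5000 bp, 57.5% from 5000 to under 6000 bp and 43.6% (29.3 to 59.0%) from 8000 bp, and the intervals of the classes from 4000 bp upwards overlapped. Very wide peaks also had higher RNAP2 scores, and the share moved with the score. Within scores from 1000 to under 2000 it was 41.7% (30.1 to 54.3%) against 29.0% (26.4 to 31.8%) in narrower peaks, with overlapping intervals. At scores of 2000 and over it was 66.3% (56.7 to 74.8%) against 41.6% (37.6 to 45.8%). Below 1000 it was not higher in the very wide peaks, at 4 of 26 against 21.3% from 500 and at 1 of 10 against 11.1% under 500. The part of score in the difference was not otherwise tested.

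The position in the gene separated very wide peaks with and without Med12. Med12 overlapped 43 of the 64 peaks with a whole gene, or 67.2% (55.0 to 77.4%), and 74 of the 133 with a start, or 55.6% (47.2 to 63.8%). It overlapped 7 of 53 at gene ends, or 13.2% (6.55 to 24.8%), and 21 of 124 inside genes, or 16.9% (11.4 to 24.5%), and the intervals of these classes lay below those of the first 2. Narrower peaks had 32.2%, 17.1%, 12.1% and 17.6% in the same classes, so the shares at gene ends and inside genes were close in both width groups. Of the 24 very wide peaks outside genes, 10 overlapped Med12, or 41.7% (24.5 to 61.2%), against 36.6% of narrower ones. The 156 peaks with Med12 and the 248 without had a median GC content of 50.1% and 45.3%, and an observed to expected CpG ratio of 0.52 and 0.27, respectively. Their median RNAP2 scores were 2309 and 645 and their median widths 5658 and 5078 bp.

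The 218 Med12 peaks inside very wide RNAP2 peaks had a median Med12 score of 83.4, close to 80.4 for the 4321 in narrower RNAP2 peaks and above 50.1 for the 6095 outside RNAP2 peaks. Of 140 that lay in a very wide peak with 1 start gene, the centre was within 1 kb of the start for 75, or 53.6%, more than 1 kb downstream for 45 and more than 1 kb upstream for 20. The highest Med12 scores were at Tnrc18 (2221.8), at Id1 (1759.08), at the long noncoding RNA Malat1 (1193.75), in an intron of Dnm3 that holds Dnm3os (1085.8) and at Hoxa11 (662.17). The Med12 peak at Id1 covered 89.8% of the 6502 bp RNAP2 peak, whereas that at Malat1 covered 23.1% of 10423 bp.

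Several Med12 peaks could share 1 RNAP2 peak. There were 45 very wide peaks with at least 2 Med12 peaks, and 5 had 4, at Hoxa7 to Hoxa10, Id2, Cyr61, Hes1 and Sema6a. In the 9803 bp peak of Id2 the Med12 centres lay 4772 and 2479 bp upstream and 1284 and 2964 bp downstream of the start, with scores of 84.14, 201.6, 145.25 and 208.51. In that of Cyr61 they lay 3129 and 1766 bp upstream and 1068 and 3644 bp downstream, with scores of 40.72, 43.43, 219.39 and 245.96. Hes1, a repressor induced by Notch, had its highest Med12 score, 319.3, at 3362 bp downstream. The Tbx5 peak of 13540 bp had 1 Med12 peak, whose centre lay 6354 bp downstream of the start, with a score of 197.5. The widest peaks without any Med12 peak were those at Hnrnpab, Srrm2, Sfpq, Dstn and Rrbp1, and Vcl. Msx1, a homeobox gene of the limb mesenchyme, also had none in a peak of 13214 bp with an RNAP2 score of 3100, and neither had the 10415 bp peak over Hoxd13 and Hoxd12.

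The genes with a start in a very wide peak were then set against 17 gene lists, which were drawn up with earlier results of these data known, with 1.02% of all coding genes as the background. Shares of lists chosen in this way are a description. A start in an RNAP2 peak of any width was found for 9010 of the 22367 coding genes, which is the background for counts of such peaks below. Of all 228 genes with a start in a very wide peak, 140, or 61.4% (54.9 to 67.5%), were in a peak that overlapped Med12, and the Med12 counts of the lists are to be read against that share. Of 50 limb mesenchyme transcription factors, 20 had a start in a very wide peak (95% Wilson interval 27.6 to 53.8%), and for 12 of these the peak overlapped Med12. Sox4 counted among the 20 only through a short annotated model of 405 bp. The peak held the end but not the start of the longer Sox4 model of 4795 bp. The widest peaks of the list were those of Tbx5, Msx1, Msx2 (12323 bp), Sox11 (9230 bp), Mecom (9000 bp), Prrx1 (8787 bp), Sox9 (7408 bp) and Gli3 (6810 bp). Prrx1 is a homeobox marker of limb mesenchyme and Sox9 drives cartilage formation. Their Med12 scores ranged from 58.72 at Sox9 to 219.68 at Prrx1, with none at Msx1 and Mecom. Other factors of the list had narrower peaks at the start, such as Tbx15 (3916 bp), Irx5 (3629 bp), Lhx2 (2281 bp) and Runx2 (1170 bp), 4 examples chosen after their values were seen.

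Of 41 Hox and Evx genes, 11 had a start in a very wide peak, or 26.8% (15.7 to 41.9%), all in the HoxA and HoxD clusters, and 9 of the 11 were in peaks with Med12. Hoxa2 was the only one of them outside the 2 stretches described above, with 4537 bp. Hoxa7, Hoxa9 and Hoxa10 had their starts in the same peak, as did Hoxd10 with Hoxd11 and Hoxd12 with Hoxd13. Genes that share a peak are not independent in these counts or in the interval. The HoxB and HoxC genes had no very wide peak at a start, and the 4 of them with any RNAP2 peak there, Hoxb8, Hoxc4, Hoxc5 and Hoxc6, had peaks of 1509 to 2234 bp. The 4 hindlimb identity genes Tbx4, Pitx1, Hoxc10 and Hoxc11 had no RNAP2 peak at the start, and with Tbx5 in a very wide peak the list went with the forelimb label.

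Of 21 signal response genes 10 had a start in a very wide peak, or 47.6% (28.3 to 67.6%), against 6 of 61 ligands, receptors and antagonists, or 9.84% (4.59 to 19.8%). The response genes were Id1 to Id4 and Smad6 and Smad7, which respond to BMP and TGF-beta, Bambi, a decoy receptor, Dusp6 and Spry2, which restrain FGF signals, and Hes1. All 4 Id peaks had a score of 3100 and widths of 6502, 9803, 9657 and 5348 bp, and 3 of them overlapped Med12, while Id4 did not. The 6 others were Wnt5a (8419 bp), Pdgfra (7310 bp), Cyp26b1 (6641 bp), Fgfr2 (5882 bp), Ptch1 (4709 bp) and Rarg (4014 bp). Ptch1 is both the Hedgehog receptor and a target of the pathway, and Cyp26b1 degrades retinoic acid.

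Of 35 immediate early genes, which respond within minutes to growth factors and stress, 12 had a start in a very wide peak, or 34.3% (20.8 to 50.8%), and 9 of these peaks overlapped Med12. Their widths were 9485 bp at Cyr61, 8335 bp at Fos, 7434 bp at Egr1, 6521 bp at Jun, 5778 bp at Btg1, 5398 bp at Zfp36l1, 5015 bp at Junb and 4662 bp at Zfp36l2. The RNAP2 score was 3100 at each of these except Zfp36l2, at 2881.05.

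Among 43 genes for the cytoskeleton, translation and heat shock, 16 had a start in a very wide peak, or 37.2% (24.4 to 52.1%). They included Actb (9485 bp), Hsp90ab1 (9105 bp), Hspa8 (8978 bp), Hsp90aa1 (8755 bp), Actg1 (8063 bp), Hspa5 (6932 bp) and Hspd1 with Hspe1, which share a peak of 6669 bp. Hspa1a and Hspa1b are near-identical genes, so that reads between them may be divided uncertainly. Of 51 RNA-binding and splicing factor genes, 13 did so, or 25.5% (15.5 to 38.9%), and 22 were touched anywhere by a very wide peak. Hnrnpl (13474 bp), Hnrnpm (10097 bp), Srsf5 (8535 bp), Hnrnpa3 (7741 bp) and Hnrnpd (6590 bp) followed the 3 widest genes of that list already named. All 77 ribosomal protein genes had an RNAP2 peak at the start, but only 4 had a very wide one, Rpl10a and Rpl37 among them, or 5.19% (2.04 to 12.6%).

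Few genes of the remaining lists were covered. The counts were 4 of 33 chromatin and nuclear factors (Cbx3, Tcf4, Brd2 and Hmgn1), 1 of 22 growth and cell cycle genes (Igf2, 6794 bp) and 1 of 36 collagen and cartilage genes (Col2a1, 4449 bp). Of markers for other cells of the limb or of other tissue, 0 of 23 limb muscle genes, 0 of 25 endothelial and blood genes, 1 of 19 ectoderm genes (Dlx2, 4242 bp) and 1 of 16 neural genes (Otx2, 7506 bp, score 569.58) had a start in a very wide peak. With counts of 0, the upper bounds of the intervals were 14.3% and 13.3% for muscle and for endothelial and blood genes. Only 2 of the 23 muscle genes had an RNAP2 peak of any width at the start, against 9010 of 22367 coding genes. ChIP of a mixed tissue cannot tell fewer cells of a type from less RNAP2 per cell.

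**Figure D5:**
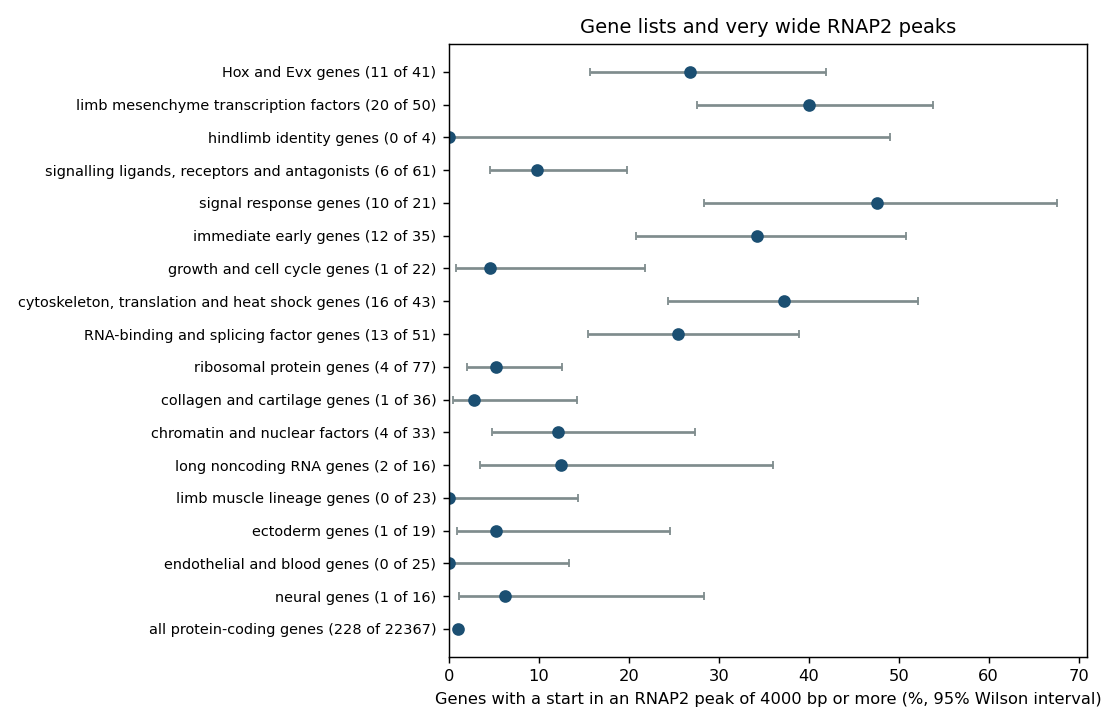
Share of the genes of each list with a start in an RNAP2 peak of 4000 bp or more, in percent, with 95% Wilson intervals and the counts beside the names. Signal response genes stood at 47.6% and immediate early genes at 34.3%, against 1.02% of all protein-coding genes.

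Very wide peaks also touched noncoding RNA genes, namely 32 of 1273 annotated long intergenic RNA genes (2.51%), 14 of 1552 snoRNA genes (0.902%) in 7 peaks and 13 of 1577 miRNA genes (0.824%). All 13 miRNA genes and 13 of the snoRNA genes lay wholly inside a peak, but only 7 of the long intergenic RNA genes did. Of the 16 annotated long noncoding RNA genes on a list of named ones, Malat1 and Dnm3os had a start in a very wide peak. The peak of 9452 bp at chr1:164146384-164155835 holds all of Dnm3os, which is transcribed across Mir199a-2 and Mir214 inside the Dnm3 gene, with a score of 3100 and 2 Med12 peaks. Mir196b lay in the widest peak, and Mir140, an miRNA of cartilage, lay in a peak of 4201 bp within Wwp2 that had no Med12 peak. RefSeq (GRCm38.p6) gave mature sequences for 7 of the 13 miRNA genes. A selection of them, all from the miRNA genes just named, is shown because these genes have no protein product. The seed (bases 2 to 8) is in capitals. The 5 sequences shown have 5 different seeds, and the other mature sequences were not compared with them.
mmu-miR-199a-5p: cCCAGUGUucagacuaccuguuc
mmu-miR-199a-3p: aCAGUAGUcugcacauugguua
mmu-miR-214-3p: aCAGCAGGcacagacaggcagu
mmu-miR-196b-5p: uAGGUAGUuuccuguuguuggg
mmu-miR-140-3p: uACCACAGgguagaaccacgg

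Among the 24 very wide peaks outside genes, those nearest to developmental regulators were at 1162 bp from Fezf1, 1545 bp from Sp8, 4270 bp from Hoxa11, 10816 bp from Meis2, 27513 bp from Tbx5 and 30484 bp from Nr2f2. Their scores were 503.45, 666.14, 2383.67, 460.89, 1299.39 and 613.62, and the one near Nr2f2 was the only one of the 6 with a Med12 peak. The highest Med12 score outside genes was 441.4, at chr1:165343666-165347701, 9894 bp from the start of Gorab. These peaks were chosen after their values were seen. In all, 4 very wide peaks had a score under 100, of which 3 lay outside genes, on chromosomes X and 12, and 1 inside Clk1.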

How the data were processed

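RNAP2 and Med12 were each profiled by ChIP-seq in 1 library, and the input library was not analysed here. Per the labels and the study's methods, the authors mapped reads to mm9 with Bowtie and called peaks with MACS 1.4.1, with a bandwidth of 250 and an enrichment range of 7 to 30; whether the input served as control is not given in the sources used here. The deposited score of a peak is the MACS value, minus 10 times the log10 of the p-value. The lists hold no counts, so the depth at a peak is unknown, and scores were compared only within a list.

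Starts and genes came from GENCODE vM1 on the same assembly. Python 3.11.15, numpy 2.4.6, pandas 2.3.3, scipy 1.17.1, pysam 0.24.0 and matplotlib 3.10.9 were used. With 1 library per antibody no test was run, and shares carry 95% Wilson intervals. On simulated lists of 20479 peaks, all 4150 planted overlaps were found. Coding transcripts gave the starts of coding genes.

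Genes were named by rule: the 12 widest peaks, the 5 nearest on each side of 4000 bp, the 5 longest genes held, the 5 widest without a start or without Med12, the 5 with the highest Med12 score or most Med12 peaks, up to 8 genes of each list by width, Tbx5 and the hindlimb genes, and sequences outside chromosome 18, of which 1 is not reported here. Others were chosen after their values were seen. The peaks and lists were chosen with earlier results of these data known. Alternatives were other width and score limits, windows and transcript sets, and bands of RNAP2 score added after the data were seen.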

Additional observations from a re-analysis of the deposited data

How the results depend on the processing

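Of 47 values under 17 alternatives, 32 stayed within the 95% interval of the reported value and 15 did not. The share with Med12 in narrower peaks was computed for only some of the alternatives. Among those, the order of very wide and narrower peaks was the other way round in 3. It was 17.6% against 20.9% in the central 1000 bp. Within 1 kb of a held start it was 10.0% (1.79 to 40.4%) against 11.1% for RNAP2 scores of 40 to under 500. For scores of 500 to under 1000 it was 15.4% (6.15 to 33.5%) against 21.3%. The intervals of both score bands held the share of the narrower peaks. With a width of at least 3000 bp, peaks with a whole gene made up 9.40%, the median share downstream of the start was 71.5% and median GC content 48.9%. With at least 5000 bp, Med12 overlapped 44.6%, a start was held by 54.5%, a whole gene by 21.0%, and 2.58% touched no gene. The share with Med12 was 18% with scores of at least 100 in both lists (12.1% of narrower peaks) and 49.2% within 1 kb of a held start, where it was 66.3% for RNAP2 scores of 2000 or more. The score bands were chosen after the data were seen. A start was held by 43.3% of peaks when only the first start of each gene counted and by 58.9% with the starts of all transcripts. The cause was not tested beyond these changes of definition.

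No paired analysis was possible because there was 1 library for each antibody. Listed intervals also depend on how the peak caller joins enriched stretches, which cannot be varied without reads.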
